A study of Mus musculus with 18 samples.

Results

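The Ms4a genes described here are 8 neighbouring mouse genes of the membrane-spanning 4-domains subfamily A: Ms4a8a, Ms4a7, Ms4a4a, Ms4a4c, Ms4a4b, Ms4a6c, Ms4a6b and Ms4a6d. They were chosen by name with earlier results of these libraries known, and the measured values behind that choice are not recorded, so the adjusted p-values below describe the genes and are no independent support for them. All 8 had a value, among 13598 genes with a value in the series, and all 8 passed the filter on low values (at least 1 FPKM in at least 3 libraries), among 9707 genes tested. RNA was sequenced from thioglycolate-elicited peritoneal macrophages of mice on a C57BL/6 background, either TLR4-WT or carrying a CRISPR/Cas9 lysine-to-arginine change in the TIR domain of the LPS receptor TLR4, TLR4-K730R or TLR4-K810R. Cells of each genotype received mock treatment or 100 ng/ml LPS for 6 hours, which gave 6 groups of 3 libraries, 18 in all. Levels are FPKM (fragments scaled to transcript length and to the fragments of the library), and differences between groups are on the log2(FPKM + 1) scale with the standard error (SE) of the limma fit, where a gene was called at a Benjamini-Hochberg adjusted p below 0.01 over the 9707 genes. No source says whether the libraries of a group came from separate mice, so the p-values measure the spread between these libraries.

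MS4A proteins are small tetraspanning membrane proteins that sit beside immune receptors and tune their signals. The best known members are CD20 (Ms4a1) of B cells and the beta chain of the high-affinity IgE receptor (Ms4a2) of mast cells. In macrophages, MS4A4A is known to associate with Dectin-1 in lipid rafts, MS4A6D with VSIG4 in the control of the NLRP3 inflammasome, and MS4A8A is known as a surface protein of alternatively activated macrophages, whereas Ms4a4b was mostly studied in T cells.

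The 8 genes lie within 537379 bp of chromosome 19 in the mouse build GRCm38, whose gene coordinates match those of the files. In order along the chromosome they were Ms4a8a (ENSMUSG00000024730, chr19:11067471-11081102, minus strand), Ms4a7 (ENSMUSG00000024672, chr19:11321039-11336146, minus strand), Ms4a4a (ENSMUSG00000101389, chr19:11375523-11392790, plus strand) and Ms4a4c (ENSMUSG00000024675, chr19:11404770-11427246, plus strand). They were followed by Ms4a4b (ENSMUSG00000056290, chr19:11443553-11467055, plus strand), Ms4a6c (ENSMUSG00000079419, chr19:11469366-11482192, plus strand), Ms4a6b (ENSMUSG00000024677, chr19:11516512-11531256, plus strand) and Ms4a6d (ENSMUSG00000024679, chr19:11586604-11604849, minus strand). The annotation holds 19 Ms4a genes over 678559 bp there, and none of the other 11 passed the filter. Of those, 4 were listed: Ms4a1 at up to 0.855 FPKM, Ms4a14 at up to 1.06, Ms4a10 at up to 0.497, and Ms4a4d at up to 1.57 and above 0 in 5 libraries, all LPS-treated. The remaining 7 had no value.

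The promoters of 5 members are printed to show how the neighbouring genes resemble each other and where short sequence motifs of macrophage transcription factors lie in them. RefSeq (GRCm38.p6) gave the 250 bases before and 50 after the transcription start for 7 of the 8 members, Ms4a7 with 2 starts, and no entry was found for Ms4a6d. Searched on both strands were the core of the interferon-stimulated response element (ISRE, GAAANNGAA), bound by IRF and STAT factors, the core of the PU.1 site (GAGGAA) and 1 form of the NF-kB site (GGGACTTT). No pair of these motifs overlapped in the members, and matches are in capitals, a match on the minus strand being shown as its plus-strand letters. Each line gives the sequence 5′ to 3′ on the strand of its gene: Ms4a6b chr19:11518309-11518608 and Ms4a6c chr19:11469118-11469417 on the plus strand, Ms4a4b chr19:11443308-11443607 and Ms4a4c chr19:11407411-11407710 on the plus strand, and the first Ms4a7 start chr19:11336097-11336396 on the minus strand. The RefSeq starts of Ms4a6b and Ms4a4c lie inside the gene spans given above.
Ms4a6b: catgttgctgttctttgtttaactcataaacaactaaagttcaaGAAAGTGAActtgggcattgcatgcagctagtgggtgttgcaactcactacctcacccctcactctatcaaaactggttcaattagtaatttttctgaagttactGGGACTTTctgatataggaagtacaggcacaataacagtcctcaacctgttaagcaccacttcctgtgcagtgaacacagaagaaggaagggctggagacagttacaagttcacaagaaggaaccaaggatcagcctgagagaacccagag
Ms4a6c: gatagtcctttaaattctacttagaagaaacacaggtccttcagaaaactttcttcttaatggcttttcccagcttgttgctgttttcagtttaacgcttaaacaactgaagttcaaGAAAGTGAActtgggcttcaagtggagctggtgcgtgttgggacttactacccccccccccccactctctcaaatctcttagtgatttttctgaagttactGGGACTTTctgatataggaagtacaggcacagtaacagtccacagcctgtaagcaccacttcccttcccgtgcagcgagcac
Ms4a4b: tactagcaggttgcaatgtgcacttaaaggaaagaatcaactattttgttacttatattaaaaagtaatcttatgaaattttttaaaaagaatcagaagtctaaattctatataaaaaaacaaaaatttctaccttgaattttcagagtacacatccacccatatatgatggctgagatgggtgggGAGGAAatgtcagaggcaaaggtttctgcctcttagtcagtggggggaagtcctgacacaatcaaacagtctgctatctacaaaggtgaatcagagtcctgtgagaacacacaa
Ms4a4c: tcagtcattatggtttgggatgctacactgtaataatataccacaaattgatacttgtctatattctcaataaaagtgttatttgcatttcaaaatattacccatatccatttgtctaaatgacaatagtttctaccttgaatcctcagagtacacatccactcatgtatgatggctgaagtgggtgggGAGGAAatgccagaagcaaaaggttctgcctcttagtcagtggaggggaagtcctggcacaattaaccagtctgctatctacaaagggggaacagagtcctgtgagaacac
Ms4a7: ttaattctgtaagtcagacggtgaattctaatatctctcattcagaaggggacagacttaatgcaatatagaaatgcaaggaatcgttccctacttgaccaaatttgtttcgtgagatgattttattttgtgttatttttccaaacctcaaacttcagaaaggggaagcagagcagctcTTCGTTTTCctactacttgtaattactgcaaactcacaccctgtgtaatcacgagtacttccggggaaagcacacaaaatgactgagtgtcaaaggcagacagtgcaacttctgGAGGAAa

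Ms4a6b and Ms4a6c each held the ISRE letters GAAAGTGAA, at -206 and -133 from the start (first base of the match, the start being 0), and the NF-kB letters GGGACTTT, at -101 and -32. Both starts of Ms4a7 held an ISRE core, GAAAACGAA at -71 on the minus strand and GAAAAGGAA at -148. The PU.1 letters stood at -64 in Ms4a4b, at -61 in Ms4a4c and at 43 after the first Ms4a7 start, while Ms4a4a and Ms4a8a held none of the 3 motifs. Thus 3 of 7 members held an ISRE core against 8.56% of 32851 promoters, 3 of 7 the PU.1 letters against 28.3%, and 2 of 7 the NF-kB letters against 1.38%. These are descriptions of letters in a window and say nothing of factor binding. Once aligned, the promoters of Ms4a4b and Ms4a4c were identical at 76.7% of the 300 bases, gaps counted as unlike. Those of Ms4a6b and Ms4a6c were identical at 64.0%, with 57.7% or less for any other pair.

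The coding sequences were alike in the same pairs, which bears on how far reads could be told apart. Over the longer of each pair, Ms4a4b and Ms4a4c were identical at 91.7% of bases, Ms4a6b and Ms4a6d at 80.4%, and Ms4a6b and Ms4a6c at 75.7%. Stretches of 50 bases shared exactly with another member made up 7.73% of those in Ms4a4c transcripts, 5.85% in Ms4a6c and 2.31% in Ms4a6d, and there were 0 in Ms4a4a, Ms4a7 and Ms4a8a. The levels of the Ms4a4b and Ms4a4c pair and of the Ms4a6 genes are therefore uncertain where such reads were divided between them, and how the authors' counting treated them is not given in the sources used here. Ms4a4a, Ms4a6d, Ms4a7 and Ms4a8a had first-exon and last-exon sums within 10% of each other in 18 libraries. Ms4a6b was measured from first exons alone, and Ms4a4c mostly from last exons, with a first exon listed in 13 libraries. For Ms4a6c the sums were within 10% of each other in 0 libraries. Its first-exon sum was 1.35 to 2.65 times its last-exon sum, so its level depends on which end is added up. Ms4a4b had sums within 10% in 12 libraries, and the ratio of first to last reached 6.56.

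Before the results, the libraries labelled LPS-treated TLR4-WT replicate 3 and LPS-treated TLR4-K730R replicate 3 need naming, because each stood apart from its own group. They are called the doubted libraries here. Over the 9699 tested genes that are not members, the first differed from its own replicates by 0.517 and 0.567 (root mean square, log2) and from LPS-treated TLR4-K730R replicates 1 and 2 by 0.493 each. It lay nearest to LPS-treated TLR4-K810R replicates 2 and 3, at 0.482 and 0.484. The second differed from its own replicates by 0.518 and 0.547 and from LPS-treated TLR4-WT replicates 1 and 2 by 0.503 and 0.460, with TLR4-K810R farther, at 0.616 to 0.633. Marker lists did not all go one way. Summed over the resident macrophage list, LPS-treated TLR4-WT stood at 41.2, 43.4 and 23.7 FPKM and TLR4-K730R at 21.4, 22.1 and 35.0, so that each doubted library lay nearer to the other group. The same held for the monocyte list (550, 506 and 931 against 835, 754 and 510) and the neutrophil list (238, 250 and 347 against 347, 300 and 233). On the intestinal epithelium list each lay nearer to its label, at 1.43, 15.2 and 21.7 against 69.3, 65.0 and 61.1. The labels were kept, and the count of called members in each comparison is also given without both libraries, an alternative chosen after the data were seen.

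The cell type label held for the macrophage markers that were listed. Adgre1, which encodes F4/80, stood at 148 to 271 FPKM and Cd68 at 387 to 771. With LPS, 5, 5 and 2 of 7 tested genes of the macrophage list were called lower in TLR4-WT, TLR4-K730R and TLR4-K810R, and 1, 1 and 2 higher. Over all tested genes 23.9%, 26.5% and 19.7% were called lower, and 10.4%, 9.32% and 9.08% higher. Fcgr1 of this list went from 50.1 to 318 FPKM in TLR4-WT by group means. The list, mostly Lyz2, summed to 12392 to 15407 over the mock libraries and 7653 to 10474 over the LPS libraries. In comparison, Cd3e, Cd3d and Cd3g, which encode CD3 chains of the T cell receptor complex, did not exceed 0.0172, 0.576 and 0.540. Some genes of the lists for other cells were well above 0, among them Il7r of the T and NK cell list at 20.5 to 93.7, Cd22 of the B cell list at 2.63 to 21.7 and S100a8 of the neutrophil list at 22.1 to 239, named after their values were seen. Itgam, which macrophages use, had no value and Cd14 was listed at 0 in 17 of 18 libraries, so a gene without a value here cannot be read as unexpressed. Markers of other cells moved with genotype: the intestinal epithelium list (12 of 14 with a value) summed to 2.44 to 3.04 FPKM in mock TLR4-WT against 59.2 to 87.5 in mock TLR4-K730R and 73.1 to 162 in mock TLR4-K810R. The mesothelium and fibroblast list summed to 32.6 to 49.1, 59.8 to 69.4 and 118 to 286 in the same groups, and the list for resident peritoneal macrophages to 30.5 to 34.6, 17.4 to 20.3 and 17.9 to 27.7. Its genes did not all go one way: Prg4 had means of 11.2, 4.87 and 4.69 and Vsig4 of 14.1, 7.27 and 7.18, but Gata6 of 1.27, 1.92 and 6.60. Of its 6 tested genes, 5 estimates were lower and 1 higher in each mutant, and the only call was 1 higher in TLR4-K810R. The mast cell list summed to 5.02 to 6.24, 0.517 to 2.68 and 1.62 to 3.51, and the monocyte list to 444 to 463, 612 to 635 and 472 to 747. In mock cells the monocyte sum was mostly Fn1 (means of 419, 592 and 549), whereas Ly6c2 stood at 32.5, 25.1 and 8.50. Of its 4 tested genes, 3 estimates were higher and 1 lower in each mutant, with 1 called in each direction in TLR4-K810R. The neutrophil list (9 genes) summed to between 58.8 and 77.8 over all mock libraries and between 233 and 347 over all LPS libraries, and the B cell list (7 of 9 with a value) to between 7.44 and 24.4 and between 4.48 and 8.05. After LPS the intestinal list summed to 1.43 to 21.7 in TLR4-WT, 61.1 to 69.3 in TLR4-K730R and 3.85 to 29.3 in TLR4-K810R, the resident list to 23.7 to 43.4, 21.4 to 35.0 and 11.9 to 18.6, the mesothelium and fibroblast list to 43.7 to 145, 48.2 to 48.9 and 103 to 124, and the T and NK cell list to 32.1 to 67.1, 20.9 to 36.1 and 30.0 to 39.6. In mock cells the T and NK cell list summed to 68.8 to 94.5, 45.9 to 68.6 and 67.2 to 93.7. The lung epithelium list reached 25.0 and 34.7 in LPS-treated TLR4-K810R replicates 2 and 3 but at most 3.94 in every other library. The part of any of these in the Ms4a differences, with LPS or between genotypes, was not tested. In bulk RNA, fewer cells of a type and less RNA per cell cannot be told apart.

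Without LPS, the members differed widely in level. In mock TLR4-WT, Ms4a6d was the highest (108 ± 15.4 FPKM, SD, n = 3), then Ms4a7 (70.0 ± 2.40), Ms4a6c (29.0 ± 5.30), Ms4a4a (26.8 ± 2.34), Ms4a8a (10.6 ± 0.806), Ms4a6b (8.78 ± 1.20), Ms4a4c (3.08 ± 0.183) and Ms4a4b (0.0567 ± 0.0983). The libraries of Ms4a6c and Ms4a4a overlapped in this order, as did those of Ms4a8a and Ms4a6b. After LPS, Ms4a6d remained the highest in TLR4-WT at 877 ± 34.4, followed by Ms4a6c (306 ± 16.8), Ms4a4a (286 ± 7.504), Ms4a4c (269 ± 98.6), Ms4a7 (74.1 ± 10.9), Ms4a6b (24.4 ± 12.4), Ms4a8a (17.5 ± 2.21) and Ms4a4b (1.36 ± 0.664). Here neither Ms4a6c and Ms4a4a nor Ms4a4a and Ms4a4c were separated, nor were Ms4a6b and Ms4a8a. The order rests on FPKM, which is per length, with the limits on Ms4a6b, Ms4a6c and Ms4a4c given above.

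**Figure D1:**
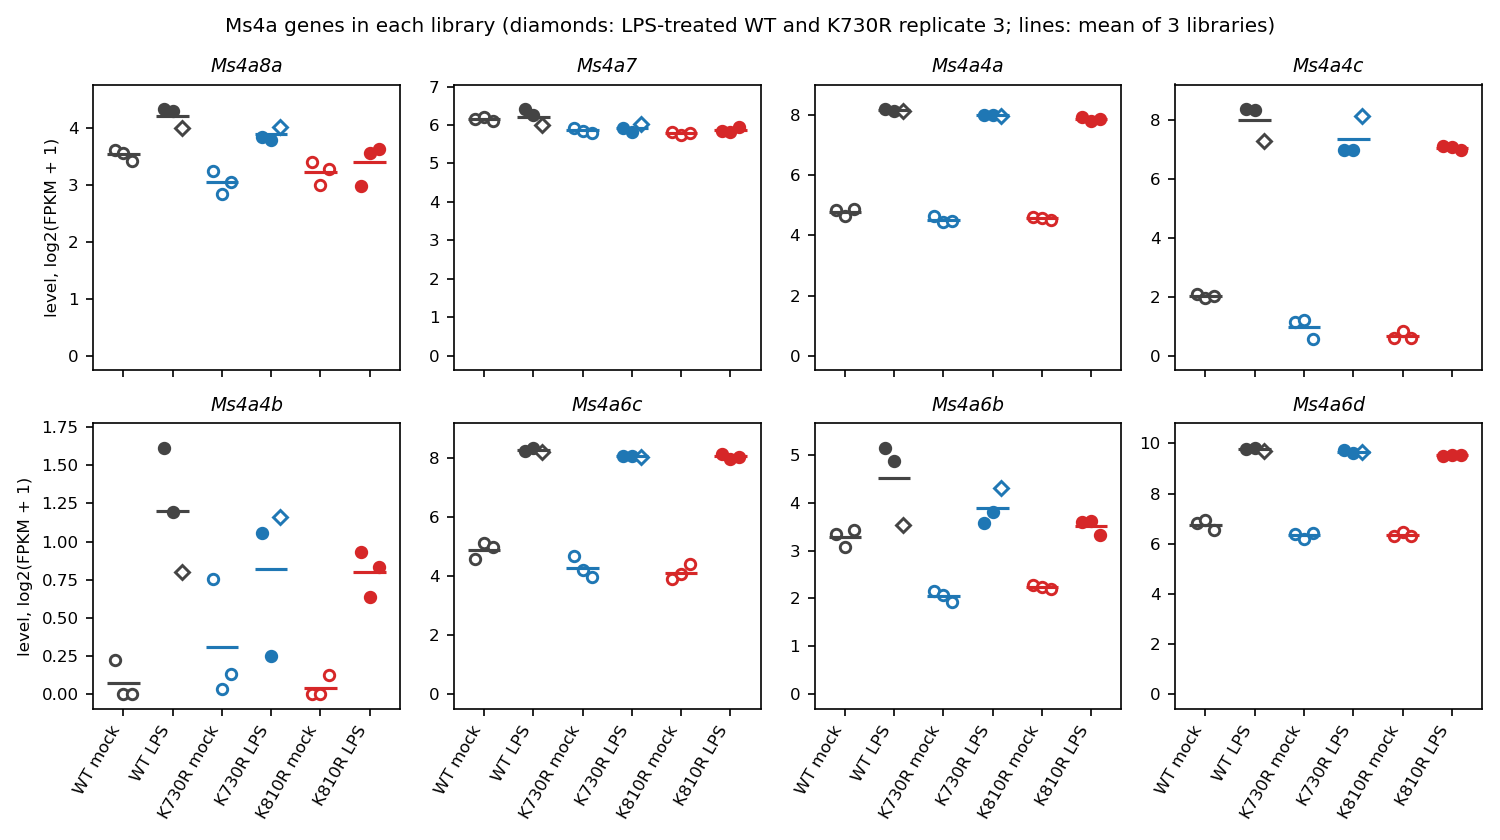
Level of each Ms4a gene as log2(FPKM + 1) on the vertical axis in each of the 18 libraries, grouped by genotype and treatment (open circles, mock; filled circles, LPS; diamonds, the LPS-treated TLR4-WT and TLR4-K730R replicate 3; horizontal lines, mean of 3 libraries). Ms4a4a, Ms4a4c, Ms4a6c and Ms4a6d were higher in every LPS library than in every mock library, Ms4a7 was nearly level, and the diamonds for Ms4a4c and Ms4a6b stand apart from their own groups.

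LPS treatment was compared with mock treatment within each genotype to ask how the macrophages responded. In TLR4-WT, 7 of the 8 genes rose, and Ms4a7 did not pass the test. Ms4a4b, 1 of the 7, reached 1 FPKM in LPS libraries alone and passed the filter through them, so its LPS call is no support, and the other 7 members gave 6, 6 and 5 calls in the 3 genotypes. When LPS-treated TLR4-WT replicate 1 was left out, the TLR4-WT count was 4, and Ms4a6b, Ms4a8a and Ms4a4b were no longer called. In TLR4-K730R 6 rose, all but Ms4a7 and Ms4a4b, and in TLR4-K810R 5, all but Ms4a7, Ms4a4b and Ms4a8a. The share of all tested genes called higher was 10.4%, 9.32% and 9.08%, in the same order. The median difference of the 8 genes was 2.12, 2.59 and 2.22, beside -0.28, -0.36 and -0.26 over all tested genes. Without both doubted libraries the same 7, 6 and 5 genes were called, beside 10%, 8.85% and 9.63% of all tested genes.

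Ms4a4c, a close copy of Ms4a4b with little known function, moved the most. Its level in TLR4-WT was 3.28, 2.91 and 3.06 FPKM in the mock libraries and 328, 323 and 155 after LPS. In TLR4-K730R it was 1.19, 1.29 and 0.486 in mock cells and 126, 124 and 276 after LPS, and in TLR4-K810R 0.496, 0.784 and 0.521 against 138, 135 and 124. Every LPS library was thus far above every mock library, and the values 155 and 276 belong to the 2 libraries named above. The rise was 5.97 on the log2 scale in TLR4-WT (SE 0.30, limma adjusted p = 2.85e-10), 6.39 in TLR4-K730R (adjusted p = 1e-10) and 6.38 in TLR4-K810R (adjusted p = 1.09e-10). By size of rise Ms4a4c stood at places 11, 10 and 8 of the 9707 genes. Because 1 FPKM was added, these differences understate the ratios of the group means, which were 87.3, 177 and 220, the last 2 over mock means of 0.989 and 0.601 FPKM. From last exons alone the ratio in TLR4-WT was 139.7, and the differences were 6.49, 6.39 and 6.40.

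Ms4a6d, Ms4a6c and Ms4a4a rose by between 8.11 and 16.1 times by group means. Ms4a6d, the partner of VSIG4, went from 112, 122 and 91.4 FPKM to 885, 907 and 839 in TLR4-WT, from 82.0, 72.9 and 84.1 to 849, 781 and 806 in TLR4-K730R, and from 77.9, 86.9 and 77.4 to 719.7, 749 and 742 in TLR4-K810R. Its differences were 3.02 (SE 0.11, limma adjusted p = 7.39e-12), 3.34 and 3.18. Ms4a6c went from 23.1, 33.5 and 30.3 to 302, 325 and 292 in TLR4-WT, from 24.9, 17.5 and 14.6 to 267, 267 and 262 in TLR4-K730R, and from 13.9, 15.8 and 20.0 to 283, 252 and 264 in TLR4-K810R. Its differences were 3.37 (SE 0.17, limma adjusted p = 3.6e-10), 3.77 and 3.94. For both genes every LPS library lay far above every mock library, whatever the genotype.

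Ms4a4a, which encodes the partner of Dectin-1, went from 27.7, 24.1 and 28.5 FPKM to 294, 283 and 280 in TLR4-WT. In TLR4-K730R it went from 24.0, 20.6 and 21.4 to 259.7, 258 and 251, and in TLR4-K810R from 23.5, 23.1 and 21.9 to 247, 226 and 233. The libraries named above did not stand apart for it, and no mock library came near an LPS library. The differences were 3.37 (SE 0.09, limma adjusted p = 4.1e-13), 3.49 and 3.31, which placed it at 91, 87 and 95 of 9707 by size of rise, beside 90, 76 and 62 for Ms4a6c and 126, 101 and 107 for Ms4a6d.

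Ms4a6b, close to Ms4a6c and Ms4a6d in sequence, rose less and varied more. Its level in TLR4-WT was 9.13, 7.44 and 9.77 FPKM in mock cells and 34.5, 28.1 and 10.5 after LPS, so that the third LPS library, the doubted one, lay just above the mock range. In TLR4-K730R it went from 3.43, 3.22 and 2.82 to 10.9, 13.05 and 18.7, and in TLR4-K810R from 3.85, 3.75 and 3.62 to 11.2, 11.2 and 9.02. The differences were 1.23 in TLR4-WT (95% confidence interval 0.59 to 1.87, limma adjusted p = 0.00319), 1.84 in TLR4-K730R (1.21 to 2.48, adjusted p = 0.000103) and 1.27 in TLR4-K810R (0.63 to 1.91, adjusted p = 0.00292). Without both doubted libraries they were 1.72 in TLR4-WT and 1.64 in TLR4-K730R. With only the compared groups in the fit, the TLR4-WT call was lost (adjusted p = 0.0395), as it was when LPS-treated TLR4-WT replicate 1 was left out (0.91, adjusted p = 0.0212), or LPS-treated replicate 2 or mock replicate 2 of that genotype. The TLR4-K810R call was lost when LPS-treated TLR4-K810R replicate 1 was left out (1.23, adjusted p = 0.0118), and likewise without LPS-treated replicate 2 or mock replicate 3.

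Ms4a8a, the marker of alternative activation, had small differences. It went from 11.2, 10.8 and 9.66 FPKM to 19.04, 18.5 and 15.0 in TLR4-WT and from 8.47, 6.16 and 7.24 to 13.2, 12.8 and 15.2 in TLR4-K730R, with no overlap in either. In TLR4-K810R the mock libraries were at 9.58, 6.94 and 8.67 and the LPS libraries at 6.89, 10.7 and 11.4, which overlapped. The difference was 0.67 in TLR4-WT (SE 0.17, limma adjusted p = 0.00443), 0.84 in TLR4-K730R (adjusted p = 0.00081) and 0.17 in TLR4-K810R (95% confidence interval -0.20 to 0.53, adjusted p = 0.464). Without LPS-treated TLR4-K810R replicate 1, the library at 6.89, the last value was 0.37 (adjusted p = 0.0819). The TLR4-WT call was lost when LPS-treated TLR4-WT replicate 1 was left out (0.61, adjusted p = 0.0214), and likewise without LPS-treated replicate 2, mock replicate 2 or mock replicate 3 of that genotype.

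Ms4a7, a gene known from macrophages and microglia, was nearly level. It stood at 69.9, 72.5 and 67.7 FPKM in mock TLR4-WT and 84.2, 75.5 and 62.6 after LPS, at 59.7, 56.6 and 54.8 against 60.04, 55.5 and 63.7 in TLR4-K730R, and at 55.1, 52.8 and 54.0 against 56.4, 55.6 and 60.3 in TLR4-K810R. The differences were 0.07 (95% confidence interval -0.15 to 0.29, limma adjusted p = 0.596), 0.06 (-0.15 to 0.28, adjusted p = 0.626) and 0.09 (-0.13 to 0.31, adjusted p = 0.527), intervals that hold no rise above 0.31. This near-zero difference depends on scale, because the median over all tested genes was below 0 in each genotype. After median-of-ratios scaling, which moved those medians to -0.02, -0.04 and -0.04, the Ms4a7 difference was 0.40 (adjusted p = 0.0173), 0.47 (adjusted p = 0.00638) and 0.36 (adjusted p = 0.0348). The split of calls over all genes moved from 1012 higher and 2316 lower to 1492 and 1379 in TLR4-WT, from 905 and 2568 to 1490 and 1303 in TLR4-K730R, and from 881 and 1916 to 1194 and 1132 in TLR4-K810R. All 8 members were already above 0 in each genotype and this scaling raised LPS differences, so it could not test their direction.

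Ms4a4b, mostly studied in T cells, stayed near the lower limit of the data. In mock TLR4-WT it was 0.170 FPKM in 1 library and listed at 0 in the other 2, and after LPS it was 2.06, 1.29 and 0.740. TLR4-K730R gave 0.686, 0.0227 and 0.0979 in mock cells and 1.08, 0.191 and 1.23 after LPS, with overlap, and TLR4-K810R 0, 0 and 0.091 against 0.909, 0.552 and 0.780. The difference was 1.13 in TLR4-WT (SE 0.26, limma adjusted p = 0.00238), 0.52 in TLR4-K730R (adjusted p = 0.117) and 0.76 in TLR4-K810R (adjusted p = 0.0307). From last exons alone the TLR4-WT value was 0.67 (adjusted p = 0.103), and it was 0.92 (adjusted p = 0.0166) when LPS-treated TLR4-WT replicate 1 was left out. Exact stretches shared with Ms4a4c, which stood at 269 FPKM beside 1.36 in LPS-treated TLR4-WT, make this rise uncertain, and the share of misassigned reads was not tested.

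**Figure D2:**
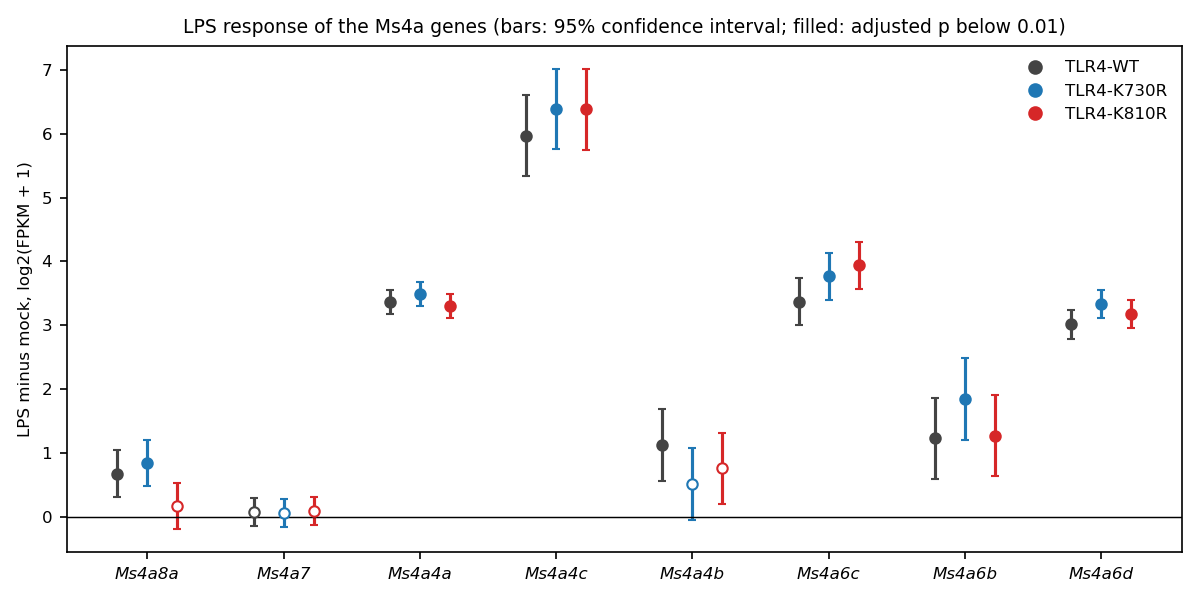
LPS response of each Ms4a gene, as the difference between LPS and mock in log2(FPKM + 1) with its 95% confidence interval, for TLR4-WT, TLR4-K730R and TLR4-K810R (filled points, adjusted p below 0.01; open points, not below). Ms4a4c stands near 6 in each genotype, Ms4a4a, Ms4a6c and Ms4a6d between 3.02 and 3.94, and the intervals of Ms4a7 include 0.

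The make-up of the summed Ms4a signal changed with these unequal rises. The 8 levels added up to 256 ± 16.2 FPKM (SD, n = 3) in mock TLR4-WT and 1855 ± 173 after LPS, to 189 ± 13.4 and 1597 ± 91.1 in TLR4-K730R, and to 187 ± 3.01 and 1449 ± 12.2 in TLR4-K810R. Ms4a6d supplied 42.0% of the sum in mock TLR4-WT and 47.5% after LPS. The share of Ms4a7 went from 27.3% to 3.98%, and that of Ms4a4c from 1.21% to 14.2%. In mock mutant cells Ms4a4c supplied less, 0.523% in TLR4-K730R and 0.321% in TLR4-K810R, and after LPS 10.8% and 9.12%. These shares describe the libraries and were not tested.

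**Figure D3:**
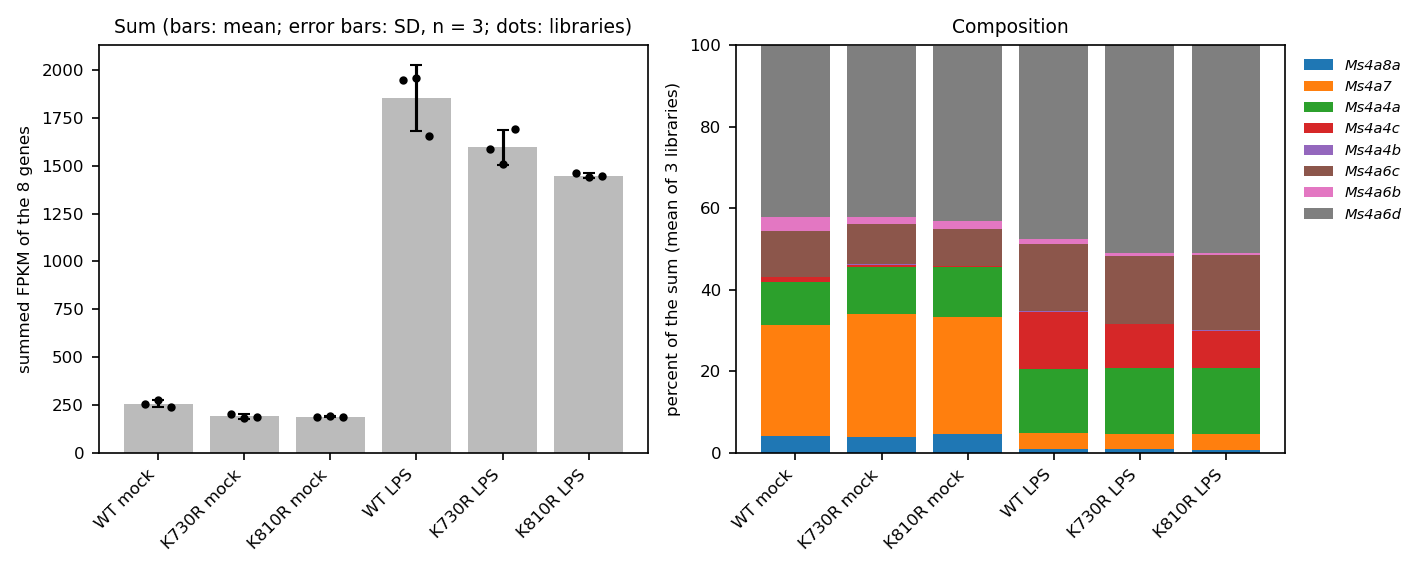
Summed FPKM of the 8 genes in each of the 6 groups (left: bars, mean; error bars, SD, n = 3; dots, libraries) and the share of each gene in that sum in percent (right: mean of 3 libraries). The sum was highest in LPS-treated TLR4-WT (1855), Ms4a6d was the largest share in every group (42.0% to 50.9%), Ms4a7 was the second in mock cells and stood below Ms4a4c, Ms4a4a and Ms4a6c after LPS.

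The lysine mutants were compared with TLR4-WT at each treatment to ask what the change in the TIR domain does to expression. The TLR4-K730R and TLR4-K810R comparisons share the same TLR4-WT libraries, so their values are given side by side and their likeness is no result. In mock cells no member was called by limma in either comparison, and 7 members in TLR4-K730R and 6 in TLR4-K810R had an unadjusted p below 0.05, as did 7.7% and 14.1% of all tested genes. Over all tested genes, 0.216% were called lower in TLR4-K730R and 0.649% in TLR4-K810R. Of the 8 estimates, 7 lay below 0 in TLR4-K730R (median -0.46) and 8 in TLR4-K810R (median -0.39), beside all-gene medians of 0.03 and 0.07. All 3 mutant libraries lay below all 3 of TLR4-WT for 6 members in TLR4-K730R, where 7.45% of all tested genes did, and for 7 in TLR4-K810R, where 6.64% did.

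Ms4a6b and Ms4a4c had the lowest estimates in mock cells. Ms4a6b was at 8.78 ± 1.20 FPKM (SD, n = 3) in TLR4-WT, at 3.16 ± 0.306 in TLR4-K730R and at 3.74 ± 0.112 in TLR4-K810R, with each mutant library below each TLR4-WT library. Its difference was -1.23 in TLR4-K730R (SE 0.30, limma adjusted p = 0.111) and -1.04 in TLR4-K810R (adjusted p = 0.0754). Ms4a4c was at 3.08 ± 0.183, 0.989 ± 0.438 and 0.601 ± 0.160, again without overlap, which gave ratios of TLR4-WT to mutant of 3.12 and 5.13. These TLR4-WT values come from first exons in replicates 1 and 3 and from last exons in replicate 2. From last exons alone they were 1.42, 2.91 and 1.45, the ratios 1.95 and 3.29, and the differences -0.55 (limma adjusted p = 0.776) and -0.85 (adjusted p = 0.213). From the larger sum, the difference was -1.06 (adjusted p = 0.230) and -1.35 (95% confidence interval -1.99 to -0.72, adjusted p = 0.0171). Both genes passed once the doubted LPS libraries were left out of the shared fit. Ms4a6b then had an adjusted p of 0.000254 and 0.000478, and Ms4a4c of 0.00195 and 0.00012, beside 0.361% and 0.968% of all genes called lower. The mock values were the same in both fits, and the SE of Ms4a4c went from 0.30 to 0.14 because the spread shared by all groups shrank. With only the compared mock groups in the fit, neither gene passed (Ms4a6b adjusted p = 0.0288 and 0.0345, Ms4a4c 0.137 and 0.0116).

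The more abundant members differed less in mock cells. Ms4a6c was at 29.0 ± 5.30 FPKM (SD, n = 3) in TLR4-WT, at 18.99 ± 5.33 in TLR4-K730R and at 16.6 ± 3.15 in TLR4-K810R, with differences of -0.60 (limma adjusted p = 0.245) and -0.77 (adjusted p = 0.0197), and the TLR4-K730R libraries overlapped those of TLR4-WT. Ms4a6d was at 108 ± 15.4, 79.6 ± 5.96 and 80.7 ± 5.37, with differences of -0.43 (adjusted p = 0.115) and -0.41 (adjusted p = 0.0432). For Ms4a7 the differences were -0.29 and -0.37, for Ms4a4a -0.27 and -0.22, and for Ms4a8a -0.49 and -0.31, none of them called. Ms4a4b gave 0.23 and -0.03, at levels of at most 0.686 FPKM.

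After LPS, no member was called in TLR4-K730R by limma, where 0 of the 9707 genes were called (0%) and 746 (7.69%) had an unadjusted p below 0.05, 2 of them members. All 8 estimates lay below 0, with a median of -0.31 beside -0.04 over all tested genes. Ms4a4a and Ms4a6c lay below TLR4-WT in each library, where 7.54% of all tested genes did. Ms4a4c was at 328, 323 and 155 FPKM in TLR4-WT and 126, 124 and 276 in TLR4-K730R, a difference of -0.64 (95% confidence interval -1.27 to -0.01, adjusted p = 0.649). Without both doubted libraries the remaining 2 in each group were 326 and 125 on average and the difference was -1.38 (SE 0.17, adjusted p = 0.000679). Ms4a6b behaved alike, at 34.5, 28.1 and 10.5 against 10.9, 13.05 and 18.7, with a difference of -0.62 (adjusted p = 0.667) from all libraries and -1.31 (SE 0.16, adjusted p = 0.000485) without both. These 2 members were then called lower, beside 0.979% of all tested genes. The TLR4-K730R result for Ms4a4c and Ms4a6b after LPS thus rests on whether the 2 libraries labelled replicate 3 are kept.

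In LPS-treated TLR4-K810R cells, no member was called by limma, where 0.134% of all tested genes were called in either direction. An unadjusted p below 0.05 was found for 6 members and for 21.8% of all tested genes. The 8 estimates lay below 0, with a median of -0.38 beside 0.11 over all tested genes, and 6 members had every library below every TLR4-WT library, where 7.89% of all tested genes did. Ms4a8a came nearest to the threshold, at 17.5 ± 2.21 FPKM (SD, n = 3) in TLR4-WT and 9.68 ± 2.43 in TLR4-K810R, a difference of -0.81 (95% confidence interval -1.18 to -0.45, adjusted p = 0.0301). Ms4a4c was at 132 ± 7.14 in TLR4-K810R, with a difference of -0.94 (adjusted p = 0.0958), and Ms4a6b at 10.5 ± 1.26, with -0.998 (adjusted p = 0.0800). Without both doubted libraries 4 members were called lower, beside 2.19% of all tested genes: Ms4a6b at -1.49 (adjusted p = 5.43e-05), Ms4a4c at -1.30 (adjusted p = 0.000274), Ms4a8a at -0.92 (adjusted p = 0.00641) and Ms4a7 at -0.47 (adjusted p = 0.00324). The 3 strongly expressed genes Ms4a6d, Ms4a6c and Ms4a4a differed by -0.25, -0.20 and -0.28, with adjusted p of 0.189, 0.539 and 0.0960.

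**Figure D4:**
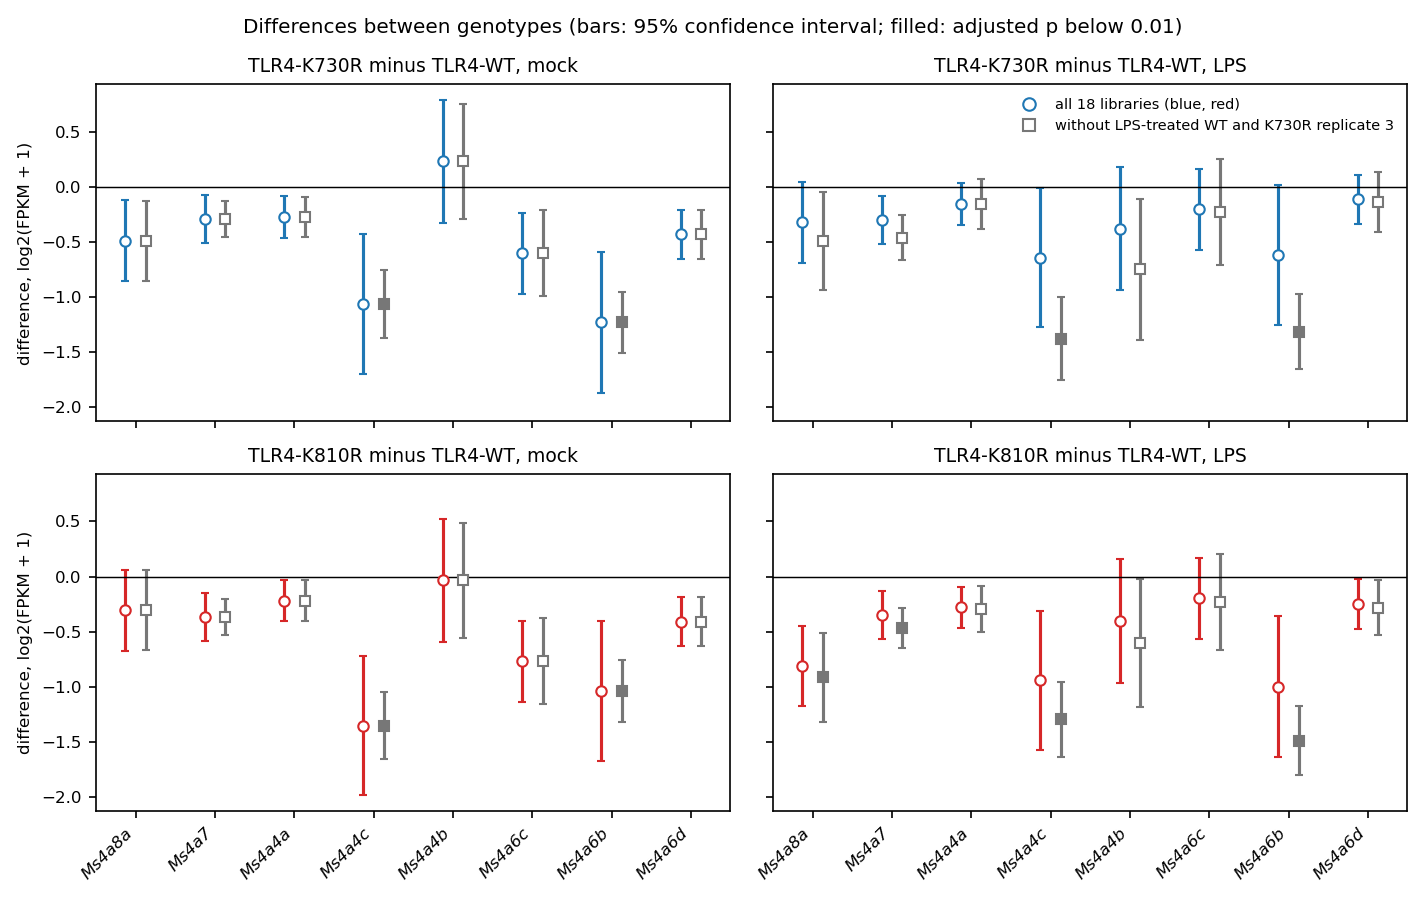
Difference of each mutant from TLR4-WT for the 8 Ms4a genes in log2(FPKM + 1), with its 95% confidence interval, in mock cells (left) and after LPS (right), from all 18 libraries (circles, TLR4-K730R in blue and TLR4-K810R in red) and without LPS-treated TLR4-WT and TLR4-K730R replicate 3 (grey squares); filled symbols have an adjusted p below 0.01. Ms4a4c and Ms4a6b lie lowest in mock cells, and after LPS their TLR4-K730R values move from -0.64 and -0.62 to -1.38 and -1.31.

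Whether the LPS response itself differed between genotypes was tested as the difference of the differences. No member was called by limma against TLR4-WT in TLR4-K730R, where 0.0412% of all tested genes were, or in TLR4-K810R, where 0.124% were, and 1 member in each had an unadjusted p below 0.05. With 7.02% and 13.2% of all tested genes below that value, 1 of 8 is near the background. For TLR4-K730R that was Ms4a6d, with a response larger by 0.32 (95% confidence interval 0.00108 to 0.64, adjusted p = 0.708). For TLR4-K810R it was Ms4a6c, larger by 0.57 (0.05 to 1.09, adjusted p = 0.324). Ms4a4c gave 0.42 (-0.47 to 1.32) and 0.41 on this scale, and Ms4a8a gave 0.17 and -0.51 (-1.02 to 0.01, adjusted p = 0.395). Without both doubted libraries no member was called either, but the Ms4a4c value for TLR4-K730R turned to -0.31 (-0.80 to 0.17) and that for TLR4-K810R to 0.06. The members with a smaller response than TLR4-WT then went from 2 to 5 of 8 in TLR4-K730R (median from 0.24 to -0.04), so no direction is read from these differences.

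Within Ms4a4c, a 102-base exon was skipped in a part of the transcripts. After LPS the skipped form made up 6.25%, 6.09% and 8.65% in TLR4-WT, while TLR4-K730R gave 9.12%, 8.81% and 7.92%. The shares for TLR4-K810R were 12.1%, 6.29% and 10.1%. The groups overlapped, and in mock cells the gene was too low for such a share. Minor forms of Ms4a7 with a longer exon made up 0.547% to 8.25%.

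The list written for partners of MS4A proteins, which also holds Fc receptor and adaptor genes, did not move in 1 direction. Links of its genes with the members were not tested. Of 9 tested on that list, limma called 6 higher and 3 lower after LPS in TLR4-WT as in TLR4-K810R, against 5 and 2 for TLR4-K730R, with no call between genotypes from all libraries. With both doubted libraries left out, LPS-treated TLR4-K730R was called lower than TLR4-WT for Fcgr4 (-1.74) and Fcgr1 (-1.02) and higher for Nlrp3 (0.76), and TLR4-K810R lower for Fcgr4 after LPS (-1.31) and in its LPS response (-1.49). From all libraries Nlrp3, the inflammasome sensor, rose by 2.99, 3.25 and 3.26 on the log2 scale, and the Fc receptor genes Fcgr4 and Fcgr1 by 2.89, 2.50 and 1.70 and by 2.60, 2.84 and 2.34. Fcgr2b, the inhibitory Fc receptor gene, rose by 1.65 in TLR4-WT and 1.77 in TLR4-K810R, and its difference in TLR4-K730R was 0.51 (adjusted p = 0.132). The genes that fell, and those without a value, are named after their values were seen. Tyrobp, which encodes the adaptor DAP12, fell by 1.20, 1.23 and 0.95. The Fc receptor gene Fcgr3 fell by 0.92, 1.30 and 1.24. Vsig4, the partner of Ms4a6d, fell by 1.21 in TLR4-WT and 1.12 in TLR4-K810R, and its difference in TLR4-K730R was -0.53 (adjusted p = 0.0858). Dectin-1 (Clec7a) and Trem2 had no value. Among genes of alternative activation, the class to which Ms4a8a is assigned, limma called 1 of 7 higher and 2 lower after LPS in each genotype. Those lower were the lectin receptor genes Mrc1 and Clec10a. The share of all tested genes called lower was 23.9%, 26.5% and 19.7%, and called higher 10.4%, 9.32% and 9.08%. By group means Arg1 of this list went from 124 to 734 FPKM in TLR4-WT. It went from 198 to 495 in TLR4-K730R and from 200 to 689 in TLR4-K810R. Tmem176a and Tmem176b, relatives of the family that passed the filter, were not called in any comparison.

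Interferon-stimulated genes were followed beside the members, because LPS is known to induce them through TLR4. Of 36 tested, limma called 32 higher after LPS in TLR4-WT and 35 in each mutant, with medians of 3.20, 3.79 and 3.86. In mock cells 12 were called lower in TLR4-K730R (median -1.14) and 19 in TLR4-K810R (median -1.35), among them Irf7, the interferon regulatory factor, at -3.03 and -2.75, and Ifit3 at -2.19 and -2.79. After LPS 0 and 2 were called lower, the 2 being the GTPase genes Iigp1 at -1.74 and Gbp4 at -1.77, and without both doubted libraries 6 and 16. Their summed level in the library labelled LPS-treated TLR4-WT replicate 3 was 6494 FPKM beside 9402 and 9441, and in LPS-treated TLR4-K730R replicate 3 it was 9184 beside 5615 and 5837, so this list moved in those libraries together with Ms4a4c and Ms4a6b. Its part in the Ms4a differences was not tested.

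The genes whose pattern over the 6 group means was most like each member were found by the root mean square difference of scaled means, as a description with no test, among 3848 genes with a range of at least 1 (3849 for Ms4a7). For Ms4a4a they were Il1rn, the interleukin-1 receptor antagonist (0.035), Ms4a6d (0.0369) and Cd274, which encodes PD-L1 (0.0375). Ms4a6d was most like Slfn2 (0.0303), the arginine transporter gene Slc7a2 (0.0345) and Ms4a4a (0.0369), and Ms4a6c was most like Tmco3 (0.0438), Cst7 (0.0449) and Ms4a6d (0.0481). Ms4a4c was most like Gsdmd, the pore-forming gasdermin D (0.0324), Phf11b (0.0354) and Tmco3 (0.0389). The nearest genes to Ms4a6b, Mid1 (0.0806), Cndp2 (0.112) and Samhd1 (0.122), were less close, as were those of Ms4a8a (BC147527 and Themis2 at 0.154, Aftph at 0.19) and of Ms4a4b (Il15ra at 0.136, Mmp25 at 0.14, Lztfl1 at 0.141). Ms4a7, whose own range was 0.44, had no near match: Gm17082 (0.272), Celf1 (0.299) and Igkv1-117 (0.346). Of the 3 protein-coding genes on either side of the family on the chromosome, Ccdc86 alone passed the filter, at 11.4 FPKM in mock TLR4-WT and 26.8 after LPS, a difference of 1.17.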

How the data were processed

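RNA was measured in 18 libraries of mouse peritoneal macrophages (6 groups of 3, from the titles and genotype and treatment labels). The authors deposited 1 table per library with the FPKM of transcript events (first exons, last exons, skipped exons) at assembled gene loci. Total RNA was isolated with a column kit and sequenced by a provider on an Illumina platform; the aligner, assembler and quantifier are not given in the sources used here. The labels name hg18, but the coordinates match the mouse build GRCm38, and gene numbers were joined to the GENCODE vM21 annotation. FPKM keep no counts, so the depth of each library is unknown and no counting interval is given.

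For each gene and library, first-exon rows and last-exon rows were added up separately and the greater sum was taken, from rows on the gene's strand and within its span (92.0% of rows). Genes that reached 1 FPKM in 3 or more libraries entered limma 3.58.1 in R 4.3.3 (moderated statistics with trend, log2(FPKM + 1), all 6 groups in 1 fit, 2-sided, Benjamini-Hochberg over 9707 genes, called below 0.01, the threshold of the study's methods). The fit was tested on simulated data. Biopython 1.88 and pandas 2.3.3 were used on Python 3.11.15. The members, the gene lists and the rules were chosen with earlier results of these data known. Named were all 8 members, the 3 genes most like each, and up to 4 examples of each list. Further genes of the partner list and of the cell type marker lists were named after their values were seen. Alternatives were a pseudocount of 0.1, no filter, no trend, only the compared groups, median-of-ratios scaling, first or last exons alone, all rows of a gene number, the replicate number as a block, and leaving out each library; leaving out 2 LPS libraries together was added after the data were seen. Same-numbered libraries of compared groups correlated at 0.0924 or less (lowest -0.32) in their deviations from group means, so numbers were not treated as pairs. Protein sequences were not used here, and a few genes of the lists are not reported here.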

Additional observations from a re-analysis of the deposited data

Results flagged for a closer look

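Transcripts on the strand opposite to 2 members were listed in LPS libraries and in no mock library; they took no part in the values above. Opposite to Ms4a6d they were listed in 5 LPS libraries, at 4.67 FPKM in TLR4-K730R replicate 1, 0.537 in TLR4-WT replicate 2, 0.642 in TLR4-WT replicate 3, 0.635 in TLR4-K810R replicate 2 and 0.624 in TLR4-K810R replicate 3. Opposite to Ms4a4b they were listed in 2, at 0.696 in TLR4-K810R replicate 1 and 0.480 in TLR4-WT replicate 2. Whether the reads keep strand is not given in the sources used here, so reads of a gene and of its opposite strand may not be told apart.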

How the results depend on the processing

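No result of the 8 genes changed direction past the threshold under any alternative run. Leaving out 1 library at a time gave 4 to 7 called members for LPS in TLR4-WT and 4 to 5 for LPS in TLR4-K810R. The 4 in TLR4-WT came without LPS-treated TLR4-WT replicate 1, with Ms4a6b, Ms4a8a and Ms4a4b lost. TLR4-K810R against TLR4-WT after LPS gave 0 to 3 (3 without LPS-treated TLR4-WT replicate 3: Ms4a8a, Ms4a7 and Ms4a6b). Without that library, 198 of the 9707 tested genes were called higher and 85 lower, against 5 and 8 from all libraries. In mock TLR4-K810R against TLR4-WT the count went from 0 to 1 with a pseudocount of 0.1 (Ms4a4c) and to 1 with median-of-ratios scaling (Ms4a6c). Of the 9707 tested genes, 71 were called higher and 68 lower with the first setting, and 70 and 69 with the second. The main fit called 90 and 63. Without both doubted libraries the counts against TLR4-WT went from 0 to 2 in each mutant in mock cells, 2 in TLR4-K730R after LPS and 4 in TLR4-K810R after LPS; the fewer libraries and smaller shared spread are part of that alternative, and the cause was not tested further. With the replicate block, the called members were 7, 6 and 5 for LPS in TLR4-WT, TLR4-K730R and TLR4-K810R and 0 elsewhere, so no count changed; the libraries share only a number. Of single genes, Ms4a8a, Ms4a6b and Ms4a4b in TLR4-WT and Ms4a6b in TLR4-K810R, all near the threshold, lost their LPS call under some alternatives, and Ms4a7 gained one in TLR4-K730R with median-of-ratios scaling. Without counts, depth sets no stated limit on Ms4a4b and mock Ms4a4c, whose values are near 0.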
